A study of Caenorhabditis elegans with 12 samples.

Results

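Meiotic chromosomes are built on a protein axis and are zipped together in pairs by the synaptonemal complex. The expression of 8 genes that encode these structures was followed in germ lines of Caenorhabditis elegans mutant for mes-2, mes-4 or both, the genes of the chromatin regulators MES-2 and MES-4. The 8 were syp-1, syp-2, syp-3 and syp-4 of the synaptonemal complex, and htp-1, htp-2, htp-3 and him-3 of the axis. They were picked out by gene symbol. All 8 had values on all 12 arrays and entered the test, among 12887 genes tested and 16378 genes with a probe.

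Each of the 12 two-colour arrays compared RNA from dissected germ lines of 1 mutant sample with RNA from 1 wild-type sample. There were 4 arrays each for the mes-2; mes-4 double mutant (strain SS0965), the mes-4 mutant (SS0803) and the mes-2 mutant (SS0186), and replicates were harvested independently. The wild-type channel was unc-4(e120) for the double mutant and for mes-2, and N2 for mes-4, and all worms were adults grown at 20 °C. Germ lines of wild type and of both single mutants came from adults that held few or no embryos, whereas double mutant germ lines were picked for good proliferation and the presence of oocytes, so genotype and selection cannot be told apart in that comparison. The labels name no mes alleles.

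In C. elegans, HTP-3, HTP-1, HTP-2 and HIM-3 belong to the HORMA-domain family. They coat the axis of each meiotic chromosome together with cohesin, HTP-3 being the scaffold on which the other three assemble. SYP-1, SYP-2, SYP-3 and SYP-4 form the central region that bridges the axes of paired homologs, and in worms the loss of any one of them prevents synapsis. MES-2 is the methyltransferase of histone H3 lysine 27 in the Polycomb complex of the worm, and MES-4 methylates histone H3 lysine 36 and marks genes expressed in the germ line. The comparisons address how far expression of the meiotic chromosome structure genes depends on each enzyme.

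Values are log2 ratios of mutant over wild type. The base of the deposited log ratios and their direction are not stated, so every fold rests on base 2, and a positive value was taken as higher in the mutant because the mutant is channel 1 and is named first on every array. The mes-2 probe bears on this direction: it had -2.70, -2.07, -2.69 and -2.49 on the double mutant arrays, and -2.09, -3.72, -2.58 and -2.81 on the mes-2 arrays. The mes-4 probe had -0.68, 0.70, 0.40 and -0.55 on the double mutant arrays (fitted -0.03, SE 0.24, adjusted p = 0.956) and 0.61, 0.82, -0.01 and 1.10 on the mes-4 arrays, so it gave no check of the mes-4 label in either group. Dyes were swapped within each group, with the mutant RNA in Cy5 on 2 of its 4 arrays, and a dye term was fitted. After the fit 47% of the remaining variance lay along 1 axis, with high scores for double mutant replicates 1 and 4 and mes-4 replicate 3 (39.1, 27.2 and 30.7) and low scores for double mutant replicates 2 and 3 (-26.9 and -39.4). These high-scoring and low-scoring arrays stand apart from the rest, and some results that rest on them are also given with the high-scoring or the low-scoring arrays left out. The mes-4 probe was below 0 on double mutant replicates 1 and 4 and above 0 on replicates 2 and 3.

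In the double mutant 2 of the 8 genes passed the test, in opposite directions: syp-3 rose and htp-3 fell. Over all genes tested, 15.9% passed the same threshold (adjusted p under 0.05), 9.62% higher and 6.25% lower, so a share of 2 in 8 is a small count against a high background. In mes-4 0 of 8 passed, against 3.91% of all genes (2.52% higher, 1.39% lower), and in mes-2 0 of 8, against 5.25% (3.94% higher, 1.3% lower). The median of the 8 fitted ratios was -0.07 in the double mutant, -0.04 in mes-4 and -0.04 in mes-2, beside medians of 0.01, 0.00 and 0.00 over all genes tested.

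**Figure D1:**
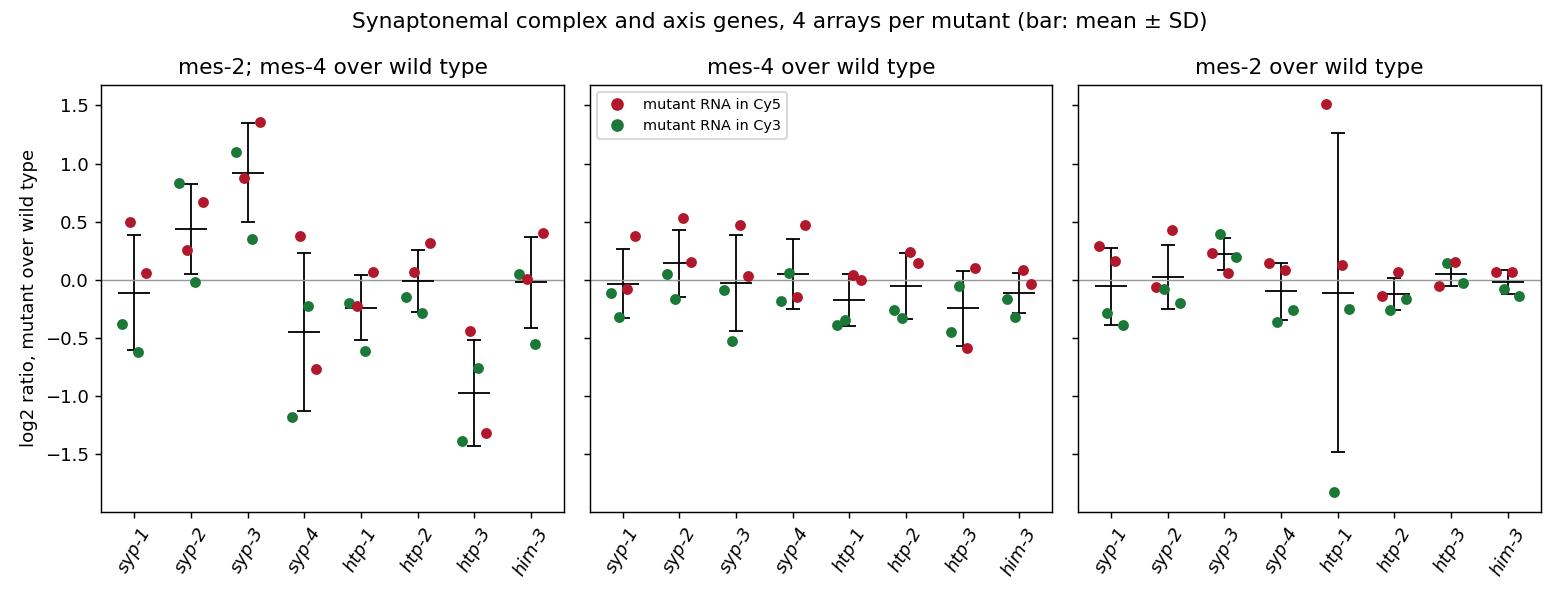
Log2 ratio of mutant over wild type (vertical axis) of the 8 genes on each array, for the double mutant, mes-4 and mes-2, coloured by the dye of the mutant RNA; bars show the mean ± SD of 4 arrays. On the double mutant arrays syp-3 lies above 0 and htp-3 below 0 on 4 of 4 arrays, and in mes-2 htp-1 spreads from -1.83 to 1.51.

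Among the central region genes, syp-3 was the one that changed. It had log2 ratios of 1.10, 0.88, 0.35 and 1.36 on the double mutant arrays, -0.09, -0.53, 0.47 and 0.03 on the mes-4 arrays, and 0.23, 0.39, 0.06 and 0.20 on the mes-2 arrays. All 4 double mutant values were above 0, and the lowest of them overlapped the highest values of both single mutants. The fitted ratio was 0.92 in the double mutant (SE 0.16, n = 4, limma adjusted p = 0.00236), a 1.90-fold higher level with a 95% interval of 1.49 to 2.41. It was -0.03 in mes-4 (SE 0.16, adjusted p = 0.984) and 0.22 in mes-2 (SE 0.16, adjusted p = 0.57).

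The rise of syp-3 in the double mutant was not shown to differ from the single mutants. The double mutant exceeded mes-4 by 0.95 (SE 0.22, adjusted p = 0.065) and mes-2 by 0.70 (SE 0.22, adjusted p = 0.102). The excess over the sum of both single mutants was 0.73 (SE 0.27, adjusted p = 0.30). Fitted on the 4 double mutant arrays alone, the same ratio of 0.92 had an adjusted p of 0.112, and with the 3 high-scoring arrays left out the ratio was 0.61 (adjusted p = 0.0378).

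syp-2, which encodes another central region protein, had log2 ratios of 0.83, 0.26, -0.02 and 0.67 on the double mutant arrays, 0.05, -0.17, 0.53 and 0.15 on the mes-4 arrays, and -0.06, -0.08, 0.43 and -0.20 on the mes-2 arrays. The double mutant values overlapped those of both single mutants, with the higher pair on replicates 1 and 4. Its fitted ratio in the double mutant was 0.43 (SE 0.15, adjusted p = 0.0692), which missed the threshold, and the interval of 1.08 to 1.69-fold spans a slight and a moderate rise. It was 0.56 (adjusted p = 0.0458) when double mutant replicate 3 was left out, and 0.24 (adjusted p = 0.298) when replicate 1 was. The ratio was 0.14 in mes-4 (SE 0.15) and 0.02 in mes-2 (SE 0.15).

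syp-4 had the widest spread of the central region genes in the double mutant (SD 0.67, n = 4). Its mean of 2 probes was -1.18, 0.38, -0.23 and -0.77 on the double mutant arrays, -0.18, 0.06, -0.15 and 0.47 on the mes-4 arrays, and 0.14, -0.36, 0.08 and -0.26 on the mes-2 arrays. Double mutant replicates 1 and 4 lay below every single mutant array, whereas replicates 2 and 3 lay within their range. The fitted ratio of -0.45 in the double mutant (SE 0.19, adjusted p = 0.153) missed the threshold. It was 0.08 (adjusted p = 0.643) with the 3 high-scoring arrays left out, and -0.97 (adjusted p = 0.00316) with the 2 low-scoring arrays left out, so the sign and the call both turned on which arrays were kept. Leaving out replicate 2 alone gave -0.68 (adjusted p = 0.0335), and leaving out replicate 1 or 4 gave -0.24 and -0.25. In mes-4 it was 0.05 (SE 0.19) and in mes-2 -0.10 (SE 0.19).

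syp-1, the remaining central region gene, passed the test for the dye and not for any mutant. It had -0.38, 0.50, -0.62 and 0.06 on the double mutant arrays, -0.11, -0.32, -0.08 and 0.38 on the mes-4 arrays, and 0.29, -0.29, 0.16 and -0.39 on the mes-2 arrays. Where the mutant sample was in Cy5 the mean was 0.28 in the double mutant, 0.15 in mes-4 and 0.22 in mes-2, and where it was in Cy3 the mean was -0.50, -0.21 and -0.34. The dye term was 0.57 (SE 0.13, adjusted p = 0.00795), and it passed for 32% of all genes tested, 15.2% with a higher Cy5 signal. With the dye accounted for, the ratio of syp-1 was -0.11 in the double mutant, -0.03 in mes-4 and -0.06 in mes-2 (SE 0.11 each, adjusted p = 0.599, 0.967 and 0.882).

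Among the axis genes the scaffold gene htp-3 was the one that changed. It had log2 ratios of -1.39, -0.44, -0.76 and -1.32 on the double mutant arrays, -0.45, -0.05, -0.59 and 0.10 on the mes-4 arrays, and -0.05, 0.14, 0.15 and -0.03 on the mes-2 arrays. All 4 double mutant values lay below all 4 mes-2 values, while 1 of them was within the range of mes-4. The fitted ratio was -0.98 in the double mutant (SE 0.16, n = 4, limma adjusted p = 0.00197), 0.508 times the wild-type level with a 95% interval of 0.396 to 0.652. It was -0.25 in mes-4 (SE 0.16, adjusted p = 0.608) and 0.05 in mes-2 (SE 0.16, adjusted p = 0.928).

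htp-3 was also the 1 gene of the 8 that passed a test between mutants. The double mutant was below mes-2 by a log2 difference of -1.03 (SE 0.23, limma adjusted p = 0.0249), in a comparison in which 6.19% of all genes passed, 2.62% in this direction. Against mes-4 the difference was -0.73 (SE 0.23, adjusted p = 0.175), where 1.78% of all genes passed, and between mes-4 and mes-2 it was -0.30 (SE 0.23, adjusted p = 0.717), where 1.96% passed. The departure from the sum of the single mutants was -0.78 (SE 0.28, adjusted p = 0.276), with 1.23% of all genes past the threshold. The ratio in the double mutant had an adjusted p of 0.126 when its 4 arrays were fitted alone, and was -0.60 (adjusted p = 0.0192) with the 3 high-scoring arrays left out. The difference from mes-2 lost the call when any 1 mes-2 array, double mutant replicate 1 or double mutant replicate 4 was left out, with values from -1.08 to -0.89 and adjusted p from 0.0555 to 0.0784.

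**Figure D2:**
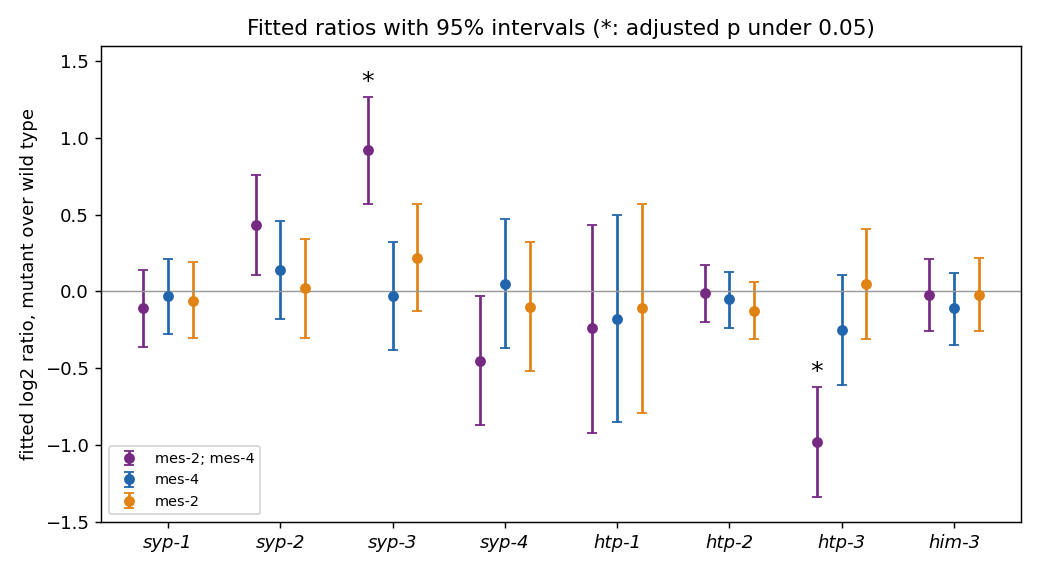
Fitted log2 ratio of mutant over wild type (vertical axis) with its 95% interval for each gene in the double mutant, mes-4 and mes-2; asterisks mark an adjusted p under 0.05. The intervals of syp-3 (0.57 to 1.27) and htp-3 (-1.34 to -0.62) in the double mutant lie apart from 0 on opposite sides, and those of htp-2 and him-3 are narrow around 0.

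him-3, an axis gene needed for homologs to pair and synapse, did not pass in any mutant. It had 0.05, 0.01, -0.55 and 0.40 on the double mutant arrays, -0.17, -0.32, 0.08 and -0.04 on the mes-4 arrays, and 0.07, -0.08, 0.07 and -0.14 on the mes-2 arrays. The 3 groups overlapped, and the double mutant arrays spread most. Its fitted ratios were -0.02, -0.11 and -0.02 in the double mutant, mes-4 and mes-2 (SE 0.11 each), and the intervals allow between 0.785 and 1.16 times the wild-type level over the 3 mutants.

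The paralogs htp-1 and htp-2 have similar sequences, so their probes may each pick up both transcripts. htp-2, which acts redundantly with htp-1 in part, had probe means of -0.15, 0.07, -0.29 and 0.32 on the double mutant arrays, -0.26, -0.33, 0.24 and 0.14 on the mes-4 arrays, and -0.14, -0.26, 0.07 and -0.17 on the mes-2 arrays. Its ratios of -0.01, -0.05 and -0.13 had the smallest errors of the 8 genes (SE 0.08 each), and its intervals ran from 0.806 to 1.12 times the wild-type level. As for syp-1, the dye term passed the threshold (0.36, SE 0.10, adjusted p = 0.0175).

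htp-1, which guards homolog synapsis and sister chromatid cohesion, had means of -0.20, -0.23, -0.61 and 0.07 on the double mutant arrays, -0.39, -0.35, 0.04 and 0.00 on the mes-4 arrays, and 1.51, -1.83, 0.13 and -0.25 on the mes-2 arrays. The extreme mes-2 values came from 1 of its 2 probes. That probe read 3.15 on mes-2 replicate 1, where the mutant RNA was in Cy5, and -3.37 on replicate 2, where the wild-type RNA was in Cy5, so on both arrays the Cy5 channel was the brighter one. The other probe read -0.13 and -0.29 there, and on the other 10 arrays the probes differed by at most 0.14. The cause was not tested. With both probes averaged, the ratios of htp-1 were -0.24 in the double mutant, -0.18 in mes-4 and -0.11 in mes-2 (SE 0.31 each). With the steadier probe alone, a setting chosen after the values were seen, they were -0.23, -0.18 and -0.15 (SE 0.10 each, adjusted p = 0.151, 0.477 and 0.503).

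**Figure D3:**
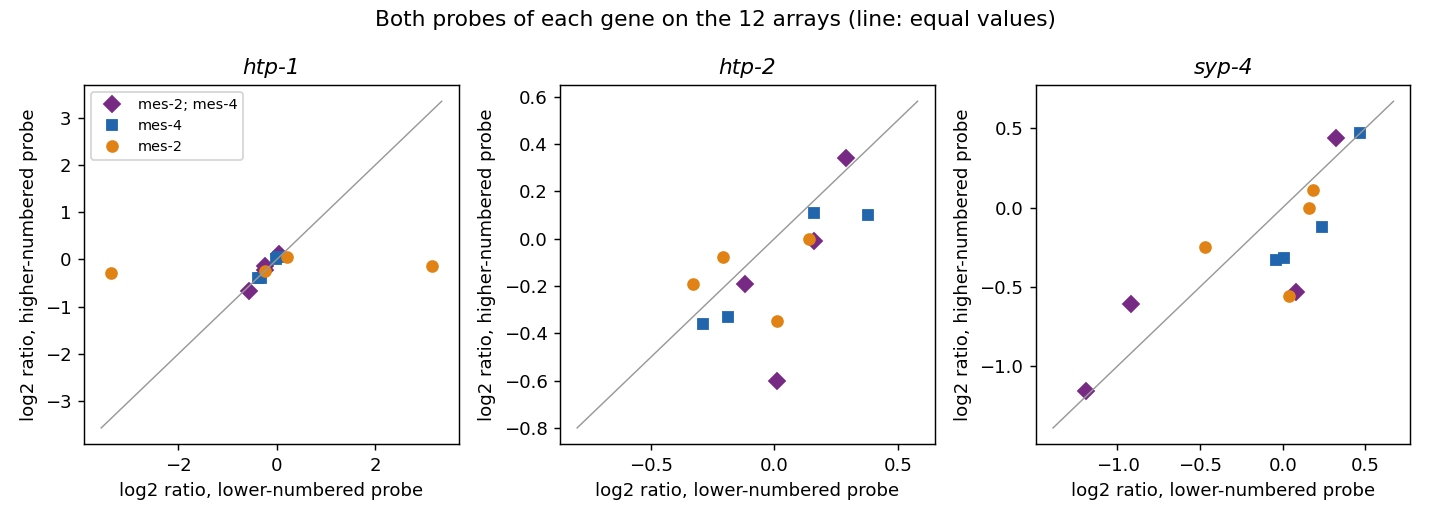
Log2 ratios of mutant over wild type from the lower-numbered probe (horizontal axis) and the higher-numbered probe (vertical axis) of htp-1, htp-2 and syp-4 on the 12 arrays, with a line of equal values. The htp-1 probes lie close to the line except on 2 mes-2 arrays, where the lower-numbered probe read 3.15 and -3.37, and the largest probe difference of htp-2 and of syp-4 was 0.61.

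In both single mutants 0 of the 8 genes passed, and of the 16 intervals for mes-4 and mes-2, 16 excluded a change of 2-fold or more either way. For htp-1 this depended on the arrays, the probe and the model: without mes-2 replicate 1 its interval in mes-2 was -1.14 to 0.02, without mes-2 replicate 4 it was -1.05 to 0.61, and without mes-4 replicate 1 or 2 its interval in mes-4 began at -1.10. With the replicate block its ratio was 0.53 in mes-2 (-0.34 to 1.39) and 0.46 in mes-4 (-0.4 to 1.32). On the mes-2 arrays alone the interval of htp-1 was -1.14 to 0.92. With the 3 high-scoring arrays left out it was -1.02 to 0.87 in mes-4. With 1 probe per gene the interval of htp-1 was -1.53 to 1.18 in mes-4 and -1.42 to 1.29 in mes-2, whereas the intervals of the other 7 genes stayed within 2-fold under every setting tried. In the fit of all arrays the lowest and highest bounds over the 8 genes were -0.85 and 0.50 in mes-4 and -0.79 and 0.57 in mes-2, the low ones belonging to htp-1. Adjusted p ran from 0.608 to 0.984 in mes-4 and from 0.526 to 0.97 in mes-2. Smaller changes remain possible within these intervals. In 22 of the 24 combinations of gene and mutant, the ratio was higher where the mutant sample was in Cy5 than where it was in Cy3. Over all genes tested the median dye term was also above 0, at 0.112. The share of such combinations over all genes was not computed, and the 24 share arrays, so nothing particular to the 8 genes is read from it.

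Within the double mutant, the 2 genes that changed had their most extreme values on the high-scoring arrays, replicates 1 and 4. On replicates 1 and 4, htp-3 had -1.39 and -1.32 and syp-3 had 1.10 and 1.36. On replicates 2 and 3, htp-3 had -0.44 and -0.76 and syp-3 had 0.88 and 0.35. mes-4 replicate 3, the other high-scoring array, held the lowest htp-3 and the highest syp-3 and syp-2 values of its group. With the 2 low-scoring double mutant arrays left out, 4 of the 8 genes passed in the double mutant, syp-3 and syp-2 higher and htp-3 and syp-4 lower, where 22% of all genes passed. With the 3 high-scoring arrays left out 2 of the 8 passed, where 20.1% of all genes did. syp-3 and htp-3 passed with either set of arrays left out. Both sets were picked by scores from these same data, and without either set more of all genes passed than the 15.9% in the full fit. Passing there is therefore no independent check. What sets these arrays apart, and its part in the values, was not tested.

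**Figure D4:**
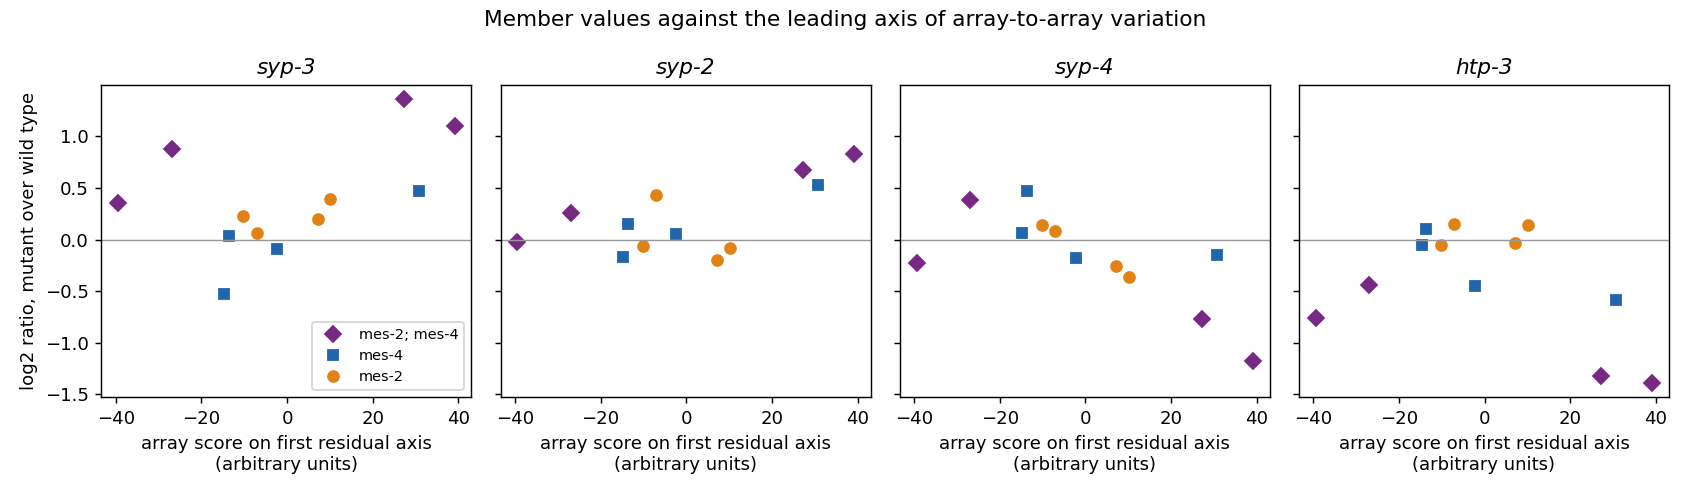
Log2 ratio of mutant over wild type (vertical axis) of syp-3, syp-2, syp-4 and htp-3 against each array's score on the leading axis of residual variation (horizontal axis, arbitrary units), with a symbol per mutant. The double mutant arrays lie at both ends, between -39.4 and 39.1, and its 2 high-scoring arrays hold the lowest values of syp-4 and htp-3.

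Some markers of germline regions also changed in the double mutant, in which 9.62% of all genes were higher and 6.25% lower. In bulk RNA, fewer cells of a type and less RNA per cell cannot be told apart. Of 5 mitotic zone markers 2 fell in the double mutant, the RNA-binding protein genes fbf-1 (-0.95, SE 0.18, adjusted p = 0.0042) and fbf-2 (-0.87, SE 0.16, adjusted p = 0.0034), and the list median on its arrays was -0.99, 0.02, -0.57 and -1.0. With the 4 double mutant arrays fitted alone 0 of these 5 passed. With the 3 high-scoring arrays left out, fbf-1 had -0.47 and fbf-2 -0.66 (limma adjusted p = 0.034 and 0.0119). Of 5 general germ cell markers 2 fell, cgh-1 (-1.10) and pgl-1 (-0.38), with array medians from -0.43 to -0.08. Of 8 oocyte markers 1 fell, cbd-1 (-0.82, SE 0.24), with array medians from -0.33 to 0.12, and of 6 sperm markers 3 fell and 1 rose, with medians from -0.37 to -0.05. No gonadal sheath, early embryo, intestine or hypodermis marker passed in the double mutant (0 of 6, 0 of 5, 0 of 8 and 0 of 4), and 1 of 3 body wall muscle markers fell and 2 of 3 neuronal markers rose. In the single mutants 0 mitotic zone, germ cell and oocyte markers passed. Over all genes 2.52% were higher and 1.39% lower in mes-4, and 3.94% and 1.3% in mes-2. In mes-4, where the 8 genes did not pass, the intestine list had a median of -0.94 with array medians from -1.66 to -0.17. Of its 8 markers 0 passed. Most are vit yolk genes, and the others, asp-1 and ges-1, had -0.96 and -0.06. Of 4 hypodermis markers 1 fell, rol-6 (-0.75), with a list median of -0.72. Of 6 sperm markers 2 fell, spe-15 (-1.0) and spe-44 (-0.53). Of 3 neuronal markers 1 rose, unc-119 (1.57), and of 6 gonadal sheath markers 1 rose, nmy-1 (0.42). In mes-2, 1 of 3 neuronal markers rose, unc-31 (2.90), and 2 of 6 sperm markers, fog-3 (0.72) and spe-15 (0.75). The part of these shifts in the values of the 8 genes was not tested. gld-1, whose product acts as germ cells enter and pass through pachytene, was lower in the double mutant (-0.30, SE 0.09, adjusted p = 0.0368) and in mes-4 (-0.63, SE 0.09, adjusted p = 0.00194), and had -0.09 in mes-2 (SE 0.09, adjusted p = 0.708). The other pachytene markers besides the 8 genes did not share the fall in mes-4. him-8 had 0.14 in the double mutant and 0.11 in mes-4 (SE 0.08 each, limma adjusted p = 0.287 and 0.632). rec-8 had -1.27 in the double mutant and -0.08 in mes-4.

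Other components of the axis and the synaptonemal complex included a gene that fell and a gene that rose. Of 11 listed, 10 were measured, and 1 rose and 1 fell in the double mutant, a share near the 15.9% of all genes called there, and 0 passed in mes-4 and in mes-2. rec-8, which encodes the meiotic cohesin kleisin, had -1.74, -0.45, -1.35 and -1.54 on the double mutant arrays and fell to -1.27 (SE 0.20, limma adjusted p = 0.00146). It had -0.08 in mes-4 and -0.32 in mes-2 (SE 0.20 each). skr-1, whose Skp1-related product is a structural part of the synaptonemal complex as well as a ubiquitin ligase subunit, had 0.95, 0.91, 0.43 and 1.47 on the double mutant arrays and rose by 0.94 (SE 0.13, adjusted p = 5.1e-04). Its close paralog skr-2, for which the probes may overlap in what they detect, had 0.28 (SE 0.23, adjusted p = 0.497). The later-described central region genes syp-5 and syp-6 had -0.12 and -0.15 in the double mutant (SE 0.17 and 0.21).

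Of 20 genes that control pairing and synapsis 16 were measured, and 2 fell and 1 rose in the double mutant, again near the 15.9% of all genes. him-19, which acts in several steps of meiotic prophase, had -1.05, -1.85, -2.76 and -1.29 on the double mutant arrays and fell to -1.74 (SE 0.21, adjusted p = 2.6e-04). xnd-1, which encodes an autosome-bound chromatin protein that affects crossover placement, fell to -0.89 (SE 0.20, adjusted p = 0.0103), and akir-1, which acts in disassembly of the synaptonemal complex, rose by 0.33 (SE 0.08, adjusted p = 0.0213). The call of xnd-1 was lost without double mutant replicate 1 or 4 (adjusted p = 0.0554 and 0.0682), and that of akir-1 without replicate 1, 3 or 4 (adjusted p from 0.0601 to 0.0817). With the 3 high-scoring arrays left out, xnd-1 had -0.42 (limma adjusted p = 0.049), and with the 2 low-scoring arrays left out -1.37 (adjusted p = 0.00224). akir-1 lost its call with either set left out (0.36 and 0.30, adjusted p = 0.0744 and 0.0969). None of the 16 passed in mes-4, and in mes-2 pch-2, a checkpoint ATPase gene whose product acts on HORMA-domain proteins, rose by 0.43 (SE 0.09, adjusted p = 0.0167) and htz-1, the H2A.Z gene, by 1.27 (SE 0.31, adjusted p = 0.0399). htz-1 had 0.74, 0.17, 2.12 and 2.06 on the mes-2 arrays, and its call was lost without mes-2 replicate 3 or 4 (1.05 and 0.88, adjusted p = 0.178 and 0.18) and without double mutant replicate 4 or mes-4 replicate 1, 2 or 4 (adjusted p from 0.0577 to 0.0654). That of pch-2 was lost without mes-2 replicate 2, 3 or 4 (adjusted p from 0.0776 to 0.0982). With the 2 low-scoring double mutant arrays left out, 7 of the 16 were lower and 0 higher in the double mutant, where 8.89% of all genes were lower and 13.1% higher, and with the 3 high-scoring arrays left out 2 were lower and 2 higher, where 10.1% were lower and 9.99% higher. With the 4 double mutant arrays fitted alone, 0 passed in this list and 0 among the 10 other structural components.

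Of 22 genes of break formation and crossing over 19 were measured, and 2 fell and 0 rose in the double mutant. Among all genes 6.25% were lower and 9.62% higher there, so 2 in 19 is a small count. com-1, which acts in resection of breaks, fell to -0.52 (SE 0.14, adjusted p = 0.0296) and dsb-1, which promotes break formation, to -0.33 (SE 0.08, adjusted p = 0.0146). Without double mutant replicate 3 or replicate 4, and with the double mutant arrays fitted alone, 0 of the 19 passed, without replicate 1 com-1 lost its call (adjusted p = 0.122), and with the 3 high-scoring arrays left out 3 were higher and 2 lower. com-1 also lost its call with the 3 high-scoring arrays left out (-0.33, limma adjusted p = 0.087). dsb-1 lost its call with the 2 low-scoring arrays left out (-0.28, limma adjusted p = 0.0951). None passed in mes-4, and in mes-2 the crossover gene cosa-1 fell to -0.36 (SE 0.07, adjusted p = 0.0118), a call lost without mes-2 replicate 1, 2 or 3 (adjusted p from 0.056 to 0.0619). Medians of the 3 lists in the double mutant were -0.16, -0.14 and -0.07, beside 0.01 over all genes tested.

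By position, syp-3, syp-4 and htp-3 lie on chromosome I, htp-1, htp-2 and him-3 on IV, and syp-1 and syp-2 on V, and none lies on X. On chromosome I, 193 of 2009 genes tested were lower in the double mutant (9.61%) and 153 higher (7.62%). On IV 6.45% were lower and 9.07% higher, and on V 4.44% and 6.98%. Of the 16 nearest measured neighbours of the 8 genes, in the gene order of assembly WBcel235, 4 were lower and 1 higher in the double mutant, beside 6.25% and 9.62% of all genes. The gene next to htp-3, tofu-4, which acts in piRNA production, was lower as htp-3 was (-0.46, SE 0.09, adjusted p = 0.00526), and the nearest measured gene on its other side, clec-90, had -0.14 (adjusted p = 0.485). Beside syp-3 the direction differed, since mrt-1, a telomere maintenance gene, was lower (-0.37, SE 0.10, adjusted p = 0.0334) and F39H2.3 had 0.12 (adjusted p = 0.392). pgl-1, the P granule gene next to him-3, was lower (-0.38, SE 0.08, adjusted p = 0.0112), whereas him-3 had -0.02.

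Across the 12 arrays, with the dye term removed, the genes most like the mean of the 4 syp genes were rae-1, algn-10, clec-101, gcst-1 and bcas-2 (Pearson r = 0.911, 0.878, 0.868, 0.867 and 0.845 among 11413 genes). Most like the mean of the HORMA-domain genes were sri-66, gphr-1, aass-1, fbxb-49 and hsp-4 (r = 0.896, 0.852, 0.842, 0.842 and 0.84). These arrays share the residual axis, and picking the highest of many correlations yields high values, so the ranking is a description only. The mean ratio of the syp genes was 0.20 in the double mutant, 0.03 in mes-4 and 0.02 in mes-2, and that of the HORMA-domain genes -0.31, -0.15 and -0.05. In the double mutant these means rested largely on syp-3 and htp-3, and do not describe either class as a whole. Beside syp-3 at 0.92, syp-1, syp-2 and syp-4 had -0.11, 0.43 and -0.45. Beside htp-3 at -0.98, htp-1, htp-2 and him-3 had -0.24, -0.01 and -0.02. The HORMA-domain mean also holds the unsteady htp-1 probe.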

How the data were processed

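The deposited values are log ratios, taken here as log2, of 22490 probes on 12 arrays of amplified poly-A RNA labelled with Cy3 and Cy5, per the labels' protocols. Log base, normalization, spot filters and ratio direction are not given in the sources used here. Deposited values ran from -9.31 to 9.15, array medians from -0.01 to 0.02, and 17297 to 21879 probes per array had a value. Precision is limited by the number of arrays.

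Probes were paired with genes by the platform annotation (17461 with 1 symbol, 0 with several, 5029 with none, left out) and averaged per gene and array. A gene entered the test if each group had it on 3 or more of its 4 arrays. One limma fit (version 3.58.1, R version 4.3.3) covered all 12 arrays, estimating each mutant's mean ratio and a dye term. p-values were two-sided and adjusted by Benjamini-Hochberg over 12887 genes. Differences between mutants were refitted as parameters of their own. Intervals are 95% intervals of the moderated fit. Chromosomes and gene order came from RefSeq gene IDs (assembly WBcel235), which matched 16302 genes and left 76 unmatched. The fit was tested on simulated data.

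The genes, the lists and the rule for named genes (the 8 members, the labels' mes genes, called members of 3 meiotic lists, at most 4 a list and group, and the 5 most similar genes per profile) were chosen with earlier results of these data known. gld-1, him-8, the neighbouring genes, skr-2, syp-5 and syp-6, and the marker genes named were added after their values were seen. Alternatives covered the dye term, scaling, weights, filters, probes, each array left out, the replicate block and arrays that stand apart.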

Additional observations from a re-analysis of the deposited data

Results flagged for a closer look

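The difference of htp-3 between the double mutant and mes-2 was tested directly and passed, at -1.03 on the log2 scale (SE 0.23, limma adjusted p = 0.0249). The gene had -1.39, -0.44, -0.76 and -1.32 on the double mutant arrays, against -0.05, 0.14, 0.15 and -0.03 on the mes-2 arrays. Both groups were compared with the same wild-type strain. Of the 24 combinations of gene and mutant examined, 0 had an array that lay apart from the other 3 by Dixon's criterion. The criterion looks for a single array apart, so it passed over htp-1 in mes-2, where arrays lay apart on both sides (1.51 and -1.83).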

How the results depend on the processing

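Under 26 other settings, of 1424 gene values 9 lost a call, 22 gained a call and 0 reversed. Another 83 changed sign with neither value past the threshold. Many settings could move a value little, such as leaving out an array of another group or choosing a probe where a gene has 1. The counts are therefore no measure of stability. In mes-4, mes-2 and their difference 0 genes passed under every setting tried. In the double mutant, where 2 passed, 0 did with its own 4 arrays alone (173 genes called in all, against 2046), 4 with array weights and 4 with the 2 low-scoring arrays left out (syp-2 and syp-4 besides syp-3 and htp-3). After the fit, residuals of same-numbered arrays of different mutants correlated from -0.473 to 0.54, with 4 of 12 pairs over 0.1. Those of different-numbered arrays ran from -0.719 to 0.641, with 13 of 36 over 0.1. These residuals share a leading axis, so they cannot show whether replicate numbers mark paired samples. With the replicate as a block 1 gene passed, htp-3 (-1.20, adjusted p = 0.0285), syp-3 having 1.01 (adjusted p = 0.0803). For the double mutant minus mes-2, where 1 passed, array weights gave 2, leaving out the 2 low-scoring arrays 4, and leaving out 1 array at a time 0 to 2. For the double mutant minus mes-4, where 0 passed, the same settings gave 3, 3 and 0 to 1 (syp-3, without double mutant replicate 3, adjusted p = 0.0394), and for the departure from the sum 2 and 2. Over all genes, counts of calls ranged over these settings from 173 to 3238 in the double mutant, 33 to 2160 in mes-4 and 95 to 1185 in mes-2, against 2046, 504 and 676. They ranged from 367 to 1861 for the double mutant minus mes-2, 67 to 2369 minus mes-4, 100 to 854 for mes-4 minus mes-2 and 12 to 1696 for the departure, against 798, 229, 252 and 159. Leaving out the 3 high-scoring arrays gave 1287 higher and 1301 lower in the double mutant, against 1240 and 806. In its difference from mes-2 this gave 655 higher and 700 lower, against 460 and 338. Array weights gave 1022 and 1138 in mes-4, against 325 and 179, and scaling gave 88 and 108 for the departure, against 88 and 71. With no dye term and with the replicate block, the 2 pairing genes called in mes-2 and cosa-1 in mes-2 lost their calls. In the double mutant so did akir-1 and the 2 break genes called there, and with the block also xnd-1 and the 2 mitotic zone markers. With arrays scaled, akir-1 and com-1 were not called in the double mutant (limma adjusted p = 0.0503 and 0.0654). Fitted on the mes-2 arrays alone, pch-2, htz-1 and cosa-1 were not called either (limma adjusted p = 0.073, 0.201 and 0.0732). The single probes, the intervals against 2-fold and the list counts by setting were added after seeing the data. The cause of these shifts was not tested.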
